A study of Caenorhabditis elegans with 52 samples.

Results

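The effect of U0126, an inhibitor of the kinase MEK upstream of ERK, on every mRNA was compared between puf-8; lip-1 double mutants of Caenorhabditis elegans (PL) and N2, the wild type, after 18 h. The measure was a difference of drug responses: the log2 fold change of U0126 over DMSO in PL minus the same fold change in N2. A positive value means that a gene rose more, or fell less, in PL than in N2. The libraries were chosen by their labels, 8 of the 52 in the series, and all genes were used. Of 45461 gene IDs in the count tables, 14876 passed the filter of at least 1 CPM (a count scaled to the size of its library) in at least 2 of the 8 libraries and were tested.

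The 4 groups, of 2 libraries each, were PL in 100 uM U0126, PL in DMSO, N2 in 100 uM U0126 and N2 in DMSO, all held for 18 h. Worms of every group had been raised from synchronized larvae to young adult hermaphrodites before being moved into liquid medium with bacteria, so the DMSO worms shared the culture and the solvent and lacked only the inhibitor. PolyA RNA came from whole animals. The mutated alleles of puf-8 and lip-1, the growth temperature and the number of worms per library are not stated in the labels, and a mutation carried by a strain is present in its soma as well as its germline. Separate cultures for the replicates are not mentioned in the labels, so a p-value covers the spread of these libraries only, which may be technical.

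PUF-8, a Pumilio protein, binds and represses mRNAs of the germline. LIP-1, a dual-specificity phosphatase, inactivates ERK. The hermaphrodite germline makes sperm first, in the larva, and then changes to oocytes. Germlines that lack both PUF-8 and LIP-1 go on making sperm, and lowering RAS-ERK signalling in them has been described to let oocytes form. ERK is also used in the wild type for the progress of meiosis and for the maturation of oocytes, so the drug acts on the germline of both genotypes. The comparison asks which mRNAs respond to the drug in a manner that depends on the genotype.

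The labels held for the mutated genes. lip-1 was at 2.79 and 1.91 CPM in PL U0126 and 3.69 and 2.51 CPM in PL DMSO, against 97.0 and 91.2 CPM in N2 U0126 and 57.4 and 48.9 CPM in N2 DMSO. puf-8 was at 24.0 and 37.2 CPM in PL U0126 and 11.2 and 8.47 CPM in PL DMSO, against 222 and 222 CPM in N2 U0126 and 106 and 92.0 CPM in N2 DMSO. Its mRNA was thus lower in PL but not absent, and it rose with the drug in both genotypes (log2 fold change 1.64 in PL and 1.17 in N2, edgeR adjusted p = 0.000111 and 6.63e-05). Between 10799205 and 25603070 counts were assigned to genes per library. Replicates correlated at r of 0.989 to 0.997 across genes, and genes are not independent replicates.

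**Figure D1:**
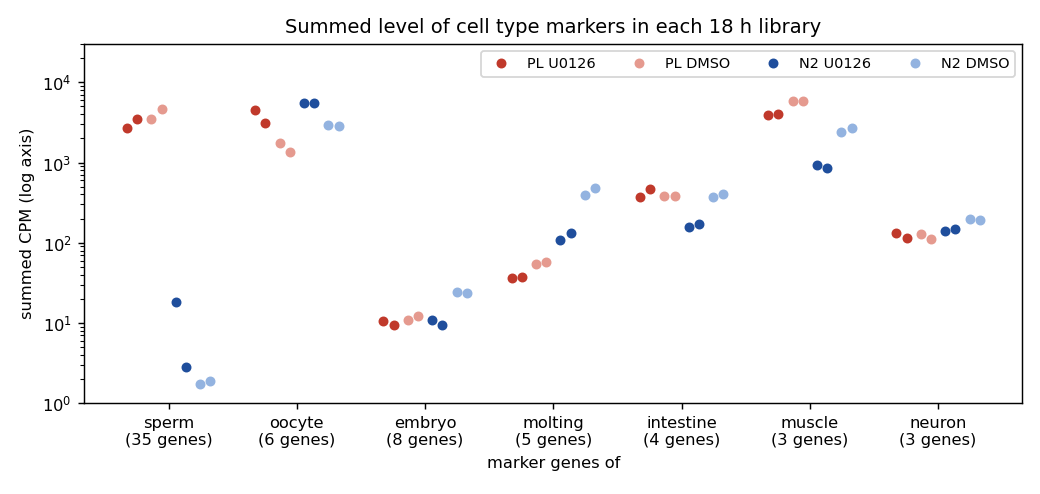
Summed CPM of marker genes (log axis) in each of the 8 libraries, 2 points per group, for 7 cell types or stages with the number of genes in brackets. Sperm markers were at 2660 to 4580 CPM in PL and at 1.74 to 18.3 CPM in N2, oocyte markers were higher in U0126 in both genotypes, and molting and embryo markers were highest in N2 DMSO.

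Marker genes showed what the worms of each group held. The 35 sperm markers summed to 2660 and 3520 CPM in PL U0126 and 3510 and 4580 CPM in PL DMSO, against 18.3 and 2.85 CPM in N2 U0126 and 1.74 and 1.88 CPM in N2 DMSO. The 6 oocyte markers summed to 4530 and 3150 CPM in PL U0126 and 1750 and 1350 CPM in PL DMSO, against 5580 and 5510 CPM in N2 U0126 and 2940 and 2820 CPM in N2 DMSO. The drug groups were thus the higher ones in both genotypes, and the PL libraries held oocyte mRNA in DMSO as well. Embryo markers, of which 1 of 8 was at 0 in all libraries, summed to 10.5 and 9.46 CPM in PL U0126 and 10.8 and 12.1 CPM in PL DMSO, against 11 and 9.54 CPM in N2 U0126 and 24.5 and 23.6 CPM in N2 DMSO. The 5 molting markers summed to 36.6 and 37 CPM in PL U0126 and 53.7 and 56.8 CPM in PL DMSO, against 108 and 132 CPM in N2 U0126 and 395 and 484 CPM in N2 DMSO. N2 DMSO therefore stood apart in embryo and molting markers, and their part in the results below was not tested. Markers of males stayed at 1.52 to 5.48 CPM in all libraries. In whole worms, fewer cells of a type and less RNA per cell cannot be told apart.

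The drug response depended on the genotype for many genes, and the count in each direction depended on how libraries were scaled to each other. With trimmed mean of M values scaling (TMM), 2978 genes (20%) had a higher response in PL and 646 (4.34%) a lower one. Relative log expression scaling (RLE) gave 1601 (10.8%) and 2541 (17.1%), so the larger group changed side. Scaling to total counts gave 4591 (30.9%) and 498 (3.35%). The median difference over all genes was 0.29 on the log2 scale with TMM, -0.08 with RLE and 0.44 with total counts, so changes are best read against these medians. No gene was called in opposite directions by TMM and RLE. Genes called the same way under both, 1601 higher (10.8%) and 625 lower (4.20%), are the ones counted below unless a scaling is named. Leaving out 1 library moved these counts to 790 higher at the lowest (without N2 U0126 replicate 1), and to 230 (without N2 DMSO replicate 2) to 1583 lower (without PL DMSO replicate 1). With the spread estimated over all 52 libraries, 65 were higher and 26 lower, of which 63 and 26 were among the 1601 and 625. In that fit 6 intestinal and 2 P450 genes were called higher, and no other list described below held more than 1 call in a direction.

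**Figure D2:**
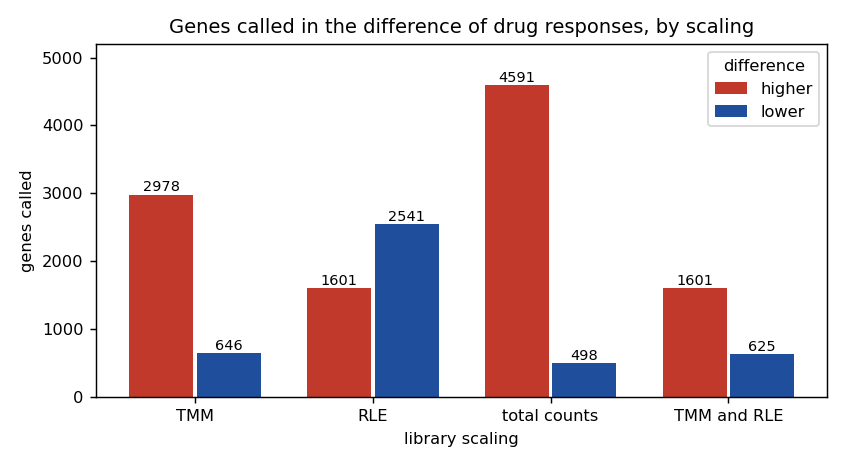
Number of genes called higher or lower in PL than in N2 in the difference of drug responses (edgeR, adjusted p under 0.05), for 3 ways of scaling libraries and for calls shared by TMM and RLE. The split runs from 4591 higher and 498 lower with total counts to 1601 higher and 2541 lower with RLE.

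Most genes with a higher response in PL were genes that the drug lowered in N2. Of the 1601 genes, 1108 (69.2%) fell in N2 and did not pass the test in PL, and 354 (22.1%) fell in both genotypes, less in PL. A smaller group rose with the drug in PL: 55 rose in both genotypes and more in PL, 50 rose in PL with no call in N2, and 32 rose in PL and fell in N2. Of the 625 genes with a lower response, 327 (52.3%) rose in N2 with no call in PL, 124 (19.8%) fell in PL with no call in N2, 109 rose in both and more in N2, and 54 fell in PL and rose in N2. Across all genes, 3820 (25.7%) rose and 2508 (16.9%) fell in PL, against 4317 (29%) and 5526 (37.1%) in N2. With TMM alone the shares were 26.1% and 17% in PL and 29.2% and 44.9% in N2, and with RLE alone 26.1% and 19.6% in PL and 36.2% and 37.1% in N2. A gene with a mean under 1 CPM in DMSO has little room to fall: this held in PL DMSO for 219 of the 1601 genes (13.7%), against 10.6% of all genes tested. In N2 DMSO it held for 8 of the 1601 (0.5%), against 12.7% of all genes. The filter kept 13848 genes without N2 DMSO replicate 1 and 13842 without replicate 2, against 14876 with both. Some tested genes thus passed only through N2 DMSO, where they are high. The counts of genes falling in N2 include them, and their fall is not counted as a result.

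**Figure D3:**
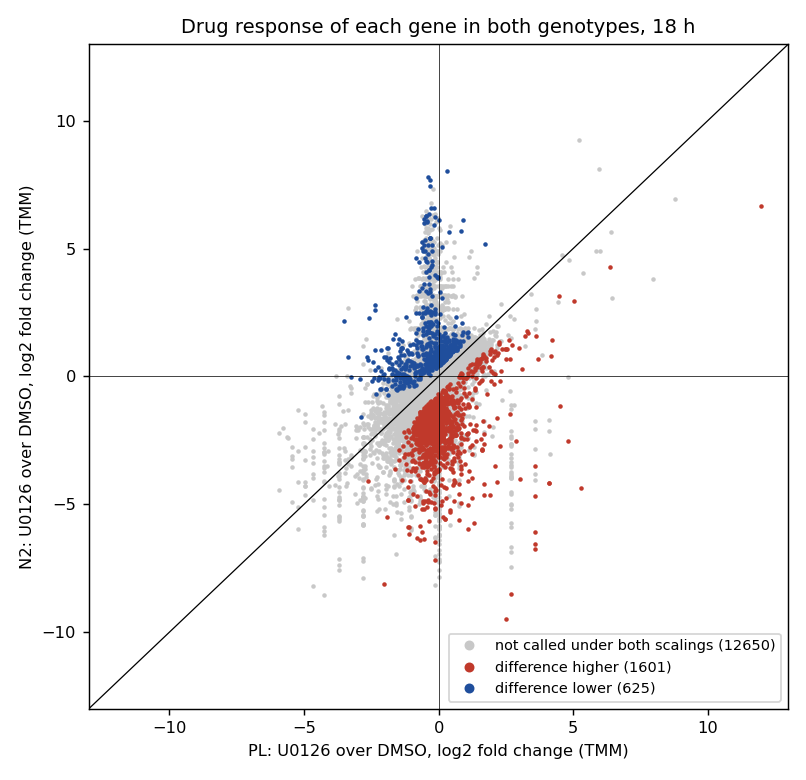
Log2 fold change of U0126 over DMSO (TMM) of each of 14876 genes in PL (x axis) and in N2 (y axis); the diagonal marks equal responses, and columns of grey points are genes with few or no counts in a group. Genes called higher under both scalings (red, 1601) lie mostly below 0 on the N2 axis and near 0 on the PL axis, and those called lower (blue, 625) lie above the diagonal.

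Genes of the muscles, neurons and intestine held many higher calls, against 10.8% of all genes tested. Of 23 muscle genes, 21 fell with U0126 in PL and 22 in N2, and 15 had a higher response in PL, that is a smaller fall, with none lower. Their median fold change was -0.59 in PL and -1.55 in N2 with TMM, and -0.64 and -1.22 with RLE. Of 24 neuronal genes, 11 fell in PL and 23 in N2, with 15 higher and none lower in the difference. Of 24 intestinal genes, 9 fell and 1 rose in PL, 22 fell in N2, and 17 were higher and none lower. Leaving out 1 library lowered the higher calls to no fewer than 9 of muscle (without N2 U0126 replicate 2), 9 of neurons (without either N2 U0126 library) and 12 of intestine (without N2 U0126 replicate 1), with none lower. The summed level of the muscle list was 10820 and 11390 CPM in PL U0126 and 16360 and 16170 CPM in PL DMSO, against 3199 and 3055 CPM in N2 U0126 and 8204 and 8715 CPM in N2 DMSO. In the same libraries the oocyte markers rose in both genotypes, as given above, and their part in these shares of RNA was not tested.

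myo-1, a myosin heavy chain of the pharynx, was at 153 and 149 CPM in PL U0126 and 187 and 202 CPM in PL DMSO, against 81.2 and 84.7 CPM in N2 U0126 and 320 and 351 CPM in N2 DMSO. The groups did not overlap in either genotype, and the fall was smaller in PL (log2 difference 1.65, SE 0.13, edgeR adjusted p = 6.3e-05; 1.27 with RLE). myo-2, the other pharyngeal myosin, the light chain gene mlc-1, troponin T (mup-2) and perlecan (unc-52) differed by 1.63, 1.45, 1.39 and 1.35. Among neuronal genes, rab-3, a GTPase of synaptic vesicles, was at 7.44 and 8.14 CPM in PL U0126 and 10.4 and 8.79 CPM in PL DMSO, against 10.4 and 8.14 CPM in N2 U0126 and 40.2 and 41.4 CPM in N2 DMSO. Only N2 DMSO stood apart for this gene (1.83, SE 0.24, adjusted p = 0.000556). The SNAP-25 gene ric-4, the touch neuron tubulins mec-7 and mec-12, and ida-1, of dense core vesicles, differed by 1.70, 1.42, 1.32 and 1.08, and of these ric-4, mec-12 and ida-1 fell in PL too.

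In the intestine, ifb-2, an intermediate filament under the gut lumen, was at 84.9 and 108 CPM in PL U0126 and 89.3 and 89.6 CPM in PL DMSO, against 48.9 and 52 CPM in N2 U0126 and 206 and 223 CPM in N2 DMSO. The PL groups overlapped and the N2 groups did not (log2 difference 2.20, SE 0.17, adjusted p = 6.3e-05; 1.82 with RLE). pho-1, an acid phosphatase of the gut, moved in opposite directions: it was at 12.7 and 15.8 CPM in PL U0126 and 6.93 and 10.6 CPM in PL DMSO, against 11.9 and 12.5 CPM in N2 U0126 and 47 and 53.5 CPM in N2 DMSO. It rose in PL and fell in N2, and the difference was 2.77 (SE 0.27, adjusted p = 0.000146). The filament gene ifd-1 and the cathepsin B-like proteases cpr-5 and cpr-4 differed by 2.84, 2.43 and 1.32. cpr-4 fell in both genotypes, and cpr-5 fell in N2 while its rise of 0.42 in PL passed with TMM only. Of 18 genes of the somatic gonad, 5 were higher and 2 lower in the difference (1 higher without N2 U0126 replicate 1), among the higher ones emb-9, of collagen IV, at 0.88, and ceh-18, a homeobox gene of the sheath, at 1.42.

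**Figure D4:**
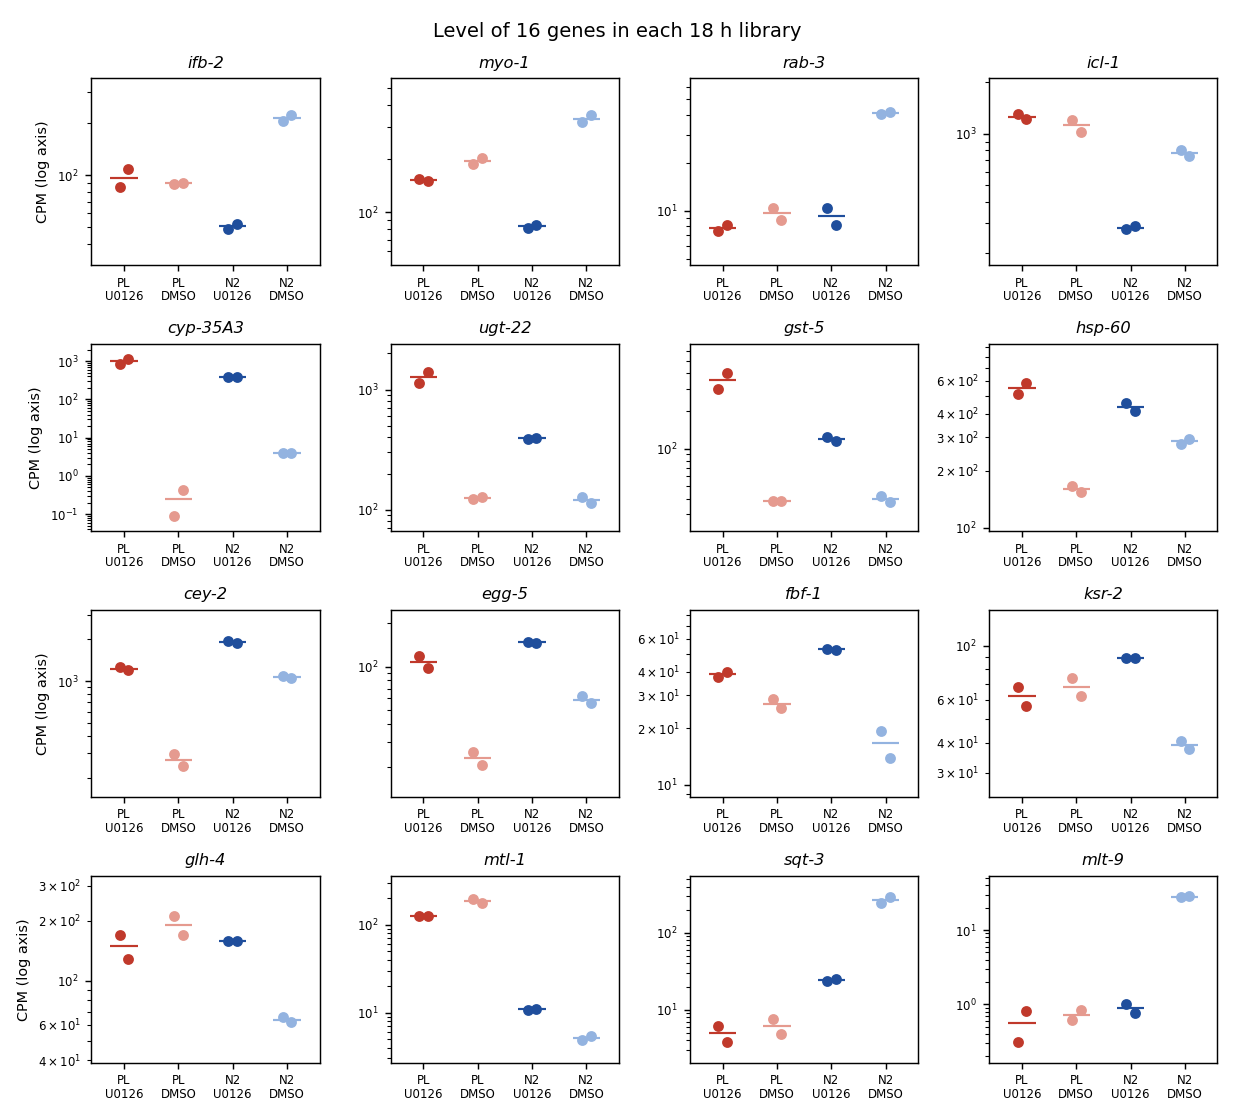
CPM (log axis, scale set per gene) of 16 genes in each library, 2 points and their mean (line) per group. myo-1, ifb-2 and icl-1 are lowest in N2 U0126, cyp-35A3, ugt-22 and gst-5 are highest in PL U0126, and ksr-2, fbf-1 and glh-4 are lowest in N2 DMSO.

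Calls among genes that burn or store fat were few in number. For the fasting and fat use list, the share of higher calls was still above the 10.8% of all genes tested. In the fasting and fat use list, 6 of 22 tested members were higher and none lower (4 higher without either N2 U0126 library or PL DMSO replicate 1), while 7 fell and 1 rose in PL and 11 fell and 3 rose in N2. icl-1, the glyoxylate cycle enzyme, was at 1301 and 1222 CPM in PL U0126 and 1207 and 1032 CPM in PL DMSO, against 277 and 289 CPM in N2 U0126 and 800 and 741 CPM in N2 DMSO. It fell in N2 alone among the calls, and the difference was 1.62 (SE 0.15, adjusted p = 0.000127; 1.24 with RLE). The acyl-CoA synthetase acs-2 and the lipase lipl-5 differed by 1.88 and 1.42. Of 21 fat synthesis genes, 3 were higher and 1 lower, shares near those of all genes, and none was higher without N2 U0126 replicate 1; 12 fell in PL and 10 in N2. elo-2, a fatty acid elongase, was at 91.1 and 95.9 CPM in PL U0126 and 144 and 147 CPM in PL DMSO, against 37.4 and 39.6 CPM in N2 U0126 and 124 and 113 CPM in N2 DMSO, a fall in both genotypes that was smaller in PL (0.98, SE 0.13, adjusted p = 0.000605). The vitellogenin gene vit-4 fell in N2 by 0.80 and its difference of 0.59 passed with TMM only. None of the 7 yolk genes was called under both scalings, although they made up a large part of all counts: 272300 and 223600 CPM in PL U0126 and 371700 and 315600 CPM in PL DMSO, against 47770 and 45970 CPM in N2 U0126 and 75050 and 65680 CPM in N2 DMSO.

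Immune genes were mostly lower in N2 U0126 than in N2 DMSO. Across all genes tested, 10.8% were higher and 4.20% lower in the difference. The shares that fell were 16.9% in PL and 37.1% in N2, and those that rose were 25.7% and 29%. Of 57 lysozyme and antimicrobial peptide genes, 14 were higher and 1 lower in the difference, with 18 falling and 5 rising in PL, and 39 falling and 2 rising in N2. Of 100 C-type lectin genes, 19 were higher and 2 lower, and 23 fell in PL against 53 in N2. Leaving out 1 library gave at the lowest 8 higher among the first list (without either N2 U0126 library or N2 DMSO replicate 2) and 9 among the lectins (without N2 U0126 replicate 1 or PL DMSO replicate 1). nlp-29, an antimicrobial peptide of the epidermis, was at 172 and 174 CPM in PL U0126 and 138 and 125 CPM in PL DMSO, against 34.3 and 27.5 CPM in N2 U0126 and 60.7 and 65.8 CPM in N2 DMSO, so it rose in PL and fell in N2 (1.42, SE 0.16, adjusted p = 0.000298). clec-56 did the same (1.71). irg-4, an infection response gene, rose in both and more in PL: 67.1 and 105 CPM in PL U0126 and 6.93 and 7.22 CPM in PL DMSO, against 61.4 and 66.9 CPM in N2 U0126 and 20.4 and 22.3 CPM in N2 DMSO (2.03, SE 0.28, adjusted p = 0.000628).

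Some detoxification genes rose with the drug in both genotypes, and some of these rose more in PL. Across all genes tested, 25.7% rose in PL and 29% in N2, and 10.8% were higher and 4.20% lower in the difference. The median difference of the P450 genes was 0.297 with TMM and -0.075 with RLE, near the 0.286 and -0.085 of all genes. Cytochrome P450 enzymes oxidize foreign compounds, and transferases then couple the products to glucuronate or related sugars (the ugt genes) or glutathione (the gst genes) for export by ABC pumps. Of 64 P450 genes, 22 rose and 11 fell in PL, 17 rose and 12 fell in N2, and 10 were higher and 2 lower in the difference. cyp-35A3 was at 831 and 1150.3 CPM in PL U0126 and 0.0878 and 0.418 CPM in PL DMSO, against 397 and 396 CPM in N2 U0126 and 3.92 and 3.94 CPM in N2 DMSO. It was higher in PL with the drug and lower in PL without it (log2 difference 5.32, SE 0.49, adjusted p = 0.000132; 4.95 with RLE). cyp-35C1 was at 895 and 1333 CPM in PL U0126 and 12.6 and 14.3 CPM in PL DMSO, against 482 and 463 CPM in N2 U0126 and 26.1 and 22.2 CPM in N2 DMSO (2.08, SE 0.25, adjusted p = 0.000379). The summed level of the P450 list was 4151 and 5413 CPM in PL U0126, 1079 and 960.5 CPM in PL DMSO, 2197 and 2152 CPM in N2 U0126, and 649 and 641.4 CPM in N2 DMSO.

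Not every enzyme of these families moved that way. cyp-33B1 was at 47.2 and 31.4 CPM in PL U0126 and 196 and 173 CPM in PL DMSO, against 2.55 and 2.54 CPM in N2 U0126 and 1.31 and 2.49 CPM in N2 DMSO, so it fell in PL and did not pass in N2 (-2.60, SE 0.37, adjusted p = 0.000762). Of 30 short-chain dehydrogenase genes, 6 were higher and 1 lower. The lower one, dhs-26, fell in PL, with 79.6 and 80.1 CPM in PL U0126 and 307 and 307 CPM in PL DMSO, and was at 0.516 to 1.76 CPM in N2 (-2.71, SE 0.42, adjusted p = 0.00115). cyp-13A5 rose in PL and fell in N2 (2.25), and cyp-13B1 fell in N2 (difference 2.56). Of 61 ugt genes, 11 were higher and 2 lower in the difference, with 19 rising and 9 falling in PL, and 13 rising and 25 falling in N2. ugt-22 was at 1141 and 1403 CPM in PL U0126 and 124 and 128 CPM in PL DMSO, against 391 and 396 CPM in N2 U0126 and 127 and 114 CPM in N2 DMSO. The DMSO groups were alike and the drug group was higher in PL (1.63, SE 0.16, adjusted p = 0.000146). ugt-41, by contrast, was at 159 and 140 CPM in PL U0126 and 156 and 141 CPM in PL DMSO, against 38.8 and 32.8 CPM in N2 U0126 and 9.29 and 13 CPM in N2 DMSO, a rise in N2 alone among the calls (-1.66, SE 0.21, adjusted p = 0.000443).

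Without N2 U0126 replicate 1 or PL U0126 replicate 2, 5 ugt genes were higher. Of 41 gst genes, 10 were higher (5 without N2 U0126 replicate 2) and 1 lower, with 6 rising and 2 falling in PL and 5 rising and 16 falling in N2. Rises were thus a smaller share of the gst genes than of all genes tested (25.7% in PL and 29% in N2). gst-5 was at 299 and 402 CPM in PL U0126 and 37.9 and 38.1 CPM in PL DMSO, against 123 and 116 CPM in N2 U0126 and 41.8 and 37.3 CPM in N2 DMSO (1.61, SE 0.19, adjusted p = 0.000336). Of 21 ABC pump genes, 4 were higher and none lower. pgp-1 rose in both genotypes, with 146 and 117 CPM in PL U0126 and 39.9 and 44.1 CPM in PL DMSO, against 46.4 and 41.7 CPM in N2 U0126 and 34.2 and 34.2 CPM in N2 DMSO (1.28, SE 0.18, adjusted p = 0.000644). pgp-14 rose in PL and fell in N2 (1.65). Among 15 genes for regulators of detoxification and fat, 4 were higher and none lower: the receptors nhr-8 and nhr-68, the hypoxia factor hif-1 and the gut GATA factor elt-2, at 1.72, 1.14, 0.76 and 1.03. None of the 4 calls held without N2 U0126 replicate 1, 1 of 15 was higher and 3 lower without PL DMSO replicate 1, and with RLE alone 4 were higher and 4 lower. elt-2 was at 12.1 and 12.2 CPM in PL U0126 and 20.5 and 17.6 CPM in PL DMSO, against 3.39 and 3.58 CPM in N2 U0126 and 11.3 and 11 CPM in N2 DMSO, a fall in both.

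Several of these detoxification genes responded more strongly in PL at 18 h and more strongly in N2 at 6 h. The same difference was computed on the 8 libraries of PL and N2 at 6 h, where 222 genes (1.54%) were higher and 195 (1.36%) lower. There, 16 of 63 P450 genes tested were lower and none higher, and 15 of 58 ugt genes were lower and 3 higher. At 6 h cyp-35A3 was at 84.3 and 93.6 CPM in PL U0126 and 1.78 and 0.762 CPM in PL DMSO, against 884 and 916 CPM in N2 U0126 and 1.38 and 1.84 CPM in N2 DMSO. The N2 drug libraries were the high ones at that hour (-3.0, SE 0.45, adjusted p = 0.00106). cyp-35C1 was at 183 and 230 CPM in PL U0126 and 43.7 and 38.6 CPM in PL DMSO at 6 h, against 865 and 850 CPM in N2 U0126 and 17.4 and 18.5 CPM in N2 DMSO (-3.25, SE 0.17, adjusted p = 8.28e-08). In all, 28 genes were higher at 18 h and lower at 6 h, 10 of them in the detoxification lists: cyp-35A2, cyp-35A3, cyp-35A4, cyp-35C1, ugt-22, ugt-37, gst-5, gst-6, gst-33 and pgp-1. 1 gene, pud-4, was lower at 18 h and higher at 6 h. Apart from genes of the naming rule, these were singled out after their values were seen.

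A test of the change itself, chosen after seeing the data, put the 16 libraries of both hours in 1 fit. The difference of responses was higher at 18 h than at 6 h for 414 of 15280 genes and lower for 225, under both scalings. For cyp-35A3 it was higher by 8.23 (SE 0.82, edgeR adjusted p = 9.96e-06), for cyp-35C1 by 5.25 (SE 0.33, adjusted p = 5.57e-08) and for gst-5 by 3.82 (SE 0.26, adjusted p = 1.19e-07). The low PL DMSO level of cyp-35A3 at 18 h makes the size of its value uncertain. The 6 h and 18 h libraries are separate, but these genes were picked for opposite calls at the 2 hours, so this test is not independent of the choice. Some calls were shared by the hours: of 1557 genes higher at 18 h and tested at 6 h, 109 (7%) were higher at 6 h too, which was 49.1% of the 222 genes higher at 6 h, against 1.54% of all genes at 6 h and 10.8% at 18 h. Of 617 lower ones, 27 (4.38%) were lower at 6 h too, or 14.1% of 192, against 1.36% of all genes at 6 h and 4.20% at 18 h. Among them, glh-4 and ugt-41 were lower at both hours (-0.86 and -2.15 at 6 h).

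The stress genes mtl-1 and sod-5 went down in PL and up in N2. mtl-1, a metallothionein, was at 125 and 128 CPM in PL U0126 and 200 and 179 CPM in PL DMSO, against 10.7 and 11.1 CPM in N2 U0126 and 4.86 and 5.35 CPM in N2 DMSO. It fell in PL and rose in N2, from levels far apart in the 2 genotypes (-1.66, SE 0.16, adjusted p = 0.00014). The superoxide dismutase gene sod-5 did the same at low levels, with 1.96 and 0.44 CPM in PL U0126 and 8.16 and 5.12 CPM in PL DMSO, against 0.84 and 1.19 CPM in N2 U0126 and 0.29 and 0.141 CPM in N2 DMSO (-4.84, SE 0.90, adjusted p = 0.00324). sod-3 rose in N2 only among the calls (-2.49), and the catalase gene ctl-3 rose in both and more in N2 (-0.73). Of 18 oxidative and metal stress genes, 5 were lower and 1, the ferritin gene ftn-2, higher (0.91), against 4.20% and 10.8% of all genes tested.

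Many cuticle, molting and pharyngeal lining genes fell in N2, where 37.1% of all genes tested fell. Part of them passed the filter only through N2 DMSO, the group where they are high. Of all genes tested, 10.8% were higher and 4.20% lower in the difference. Of 112 collagen genes, 14 fell and 1 rose in PL, 60 fell and 7 rose in N2, and 22 were higher and 4 lower in the difference. With RLE alone 17 were lower, and 10 were lower without PL DMSO replicate 1. Of the 112, 88 passed the filter without N2 DMSO replicate 1 and 87 without replicate 2. Of the 50 abu and pqn genes given below, 43 passed without replicate 1 and 43 without replicate 2. The others needed that N2 DMSO library to pass, so a fall of such genes in N2 is not counted as a result. The counts over 112 and 50 genes in this paragraph still include them. The median collagen difference (TMM) was 0.7 with all 8 libraries, 0.42 without N2 DMSO replicate 1 and 0.35 without replicate 2. For the abu and pqn genes these medians were 0.62, 0.49 and 0.38. sqt-3, a cuticle collagen, was at 6.10 and 3.81 CPM in PL U0126 and 7.55 and 4.81 CPM in PL DMSO, against 23.8 and 25.4 CPM in N2 U0126 and 247 and 295 CPM in N2 DMSO. Only N2 DMSO was high (3.09, SE 0.32, adjusted p = 0.000175). col-166, col-10, col-144 and dpy-17 differed by 2.16, 2.53, 2.13 and 1.89. Of 13 molting cycle genes, 6 were higher and none lower, with 11 falling in N2 and 4 in PL; 3 were higher without N2 U0126 replicate 1, PL DMSO replicate 1 or PL U0126 replicate 2. mlt-9, a gene needed for molting, was at 0.31 and 0.807 CPM in PL U0126 and 0.614 and 0.837 CPM in PL DMSO, against 1.01 and 0.777 CPM in N2 U0126 and 27.7 and 28.4 CPM in N2 DMSO (4.66, SE 0.62, adjusted p = 0.00054). Outside N2 DMSO mlt-9 was near or under 1 CPM, so its fall in N2 is not counted as a result either. Of 50 abu and pqn genes of the pharyngeal lining, 13 were higher (7 without N2 U0126 replicate 1 or PL DMSO replicate 1) and 1 lower, among the higher ones pqn-32 (4.65) and abu-14 (5.96).

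The 10 largest positive differences among the called genes that averaged 5 CPM or more in some group were those of osm-8, F58E6.3, F49D11.6, C14A4.9, C02E7.7, K10H10.4, tag-297, lpr-6, cutl-9 and bus-5, of which osm-8 encodes a mucin-like protein of the epidermis and cutl-9 a cuticlin-like protein. They were at 4.69 to 34 CPM in N2 DMSO, at 0 to 1.26 CPM in N2 U0126, at 0 to 1.17 CPM in PL U0126 and at 0 to 0.614 CPM in PL DMSO. A fall in PL was not detectable at these levels. Most of these genes passed the filter, and all reached 5 CPM, only through N2 DMSO, the group where they are high. Their fall in N2 is therefore not counted as a result. bus-5, with counts in every library, was at 1.03 and 1.17 CPM in PL U0126 and 0.614 and 0.418 CPM in PL DMSO, against 0.49 and 0.415 CPM in N2 U0126 and 24.6 and 34 CPM in N2 DMSO (7.05, SE 0.56, adjusted p = 6.3e-05). osm-8 was at 0 in N2 U0126, at least 88.7-fold lower than in N2 DMSO (against 3 counts over the group). F49D11.6 passed with TMM only. The molting and embryo markers, given above, were likewise highest in N2 DMSO.

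Few genes switched on in the early embryo could be compared. Of 57 listed, 30 passed the filter on low values, but only 14 did so without either N2 DMSO library, so many passed only through the group where they are high, and their fall in N2 is not counted as a result. In the difference 4 of the 30 were higher and 1 lower, with a median of 1.22, and 2 of the 14 were higher and 1 lower, with a median of 0.61 without N2 DMSO replicate 1 and 0.52 without replicate 2. unc-120, a transcription factor of muscle, was at 5.89 and 6.67 CPM in PL U0126 and 7.64 and 9.83 CPM in PL DMSO, against 2.90 and 3.37 CPM in N2 U0126 and 15.3 and 20.4 CPM in N2 DMSO (2.06, SE 0.32, adjusted p = 0.00126). lin-26, an epithelial zinc finger gene, rose in both and more in PL (0.88), and sdz-27 fell in PL (-0.75).

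Oocyte genes rose with U0126 in both genotypes, and few differed. Of 23 genes for RNA regulators of oocytes, 20 rose in PL and 20 in N2, 2 fell in PL, and 1 was higher and 1 lower in the difference, against background rates of 10.8% and 4.20%. Of 17 genes for the eggshell and egg activation, 15 rose in each genotype and 3 were higher with none lower; none was higher without either N2 U0126 library or without PL DMSO replicate 2. cey-2, a Y-box RNA-binding protein of the germline, was at 1254 and 1203 CPM in PL U0126 and 295 and 243 CPM in PL DMSO, against 1950.4 and 1865 CPM in N2 U0126 and 1080.2 and 1046 CPM in N2 DMSO. All drug libraries were above all DMSO libraries within a genotype, and the rise was larger in PL (log2 fold change 2.19 in PL and 0.84 in N2; difference 1.34, SE 0.15, adjusted p = 0.000261; 0.97 with RLE). egg-5, needed for egg activation, was at 119 and 97.5 CPM in PL U0126 and 25.5 and 20.5 CPM in PL DMSO, against 149 and 147 CPM in N2 U0126 and 62.0 and 55.4 CPM in N2 DMSO (0.89, SE 0.18, adjusted p = 0.00574; 0.52 with RLE). egg-2, a receptor-like protein of the egg surface, and chs-1, the eggshell chitin synthase, differed by 1.12 and 0.87.

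rme-2 encodes the receptor by which oocytes take up yolk, and its mRNA was at 1377 and 1009 CPM in PL U0126 and 424 and 329 CPM in PL DMSO, against 1479 and 1437 CPM in N2 U0126 and 809 and 782 CPM in N2 DMSO. It rose in both genotypes, and the difference of 0.79 (SE 0.21, adjusted p = 0.0204) passed with TMM and not with RLE (0.41, adjusted p = 0.103). The same held for cey-3, pos-1 and mbk-2. meg-1, which acts in germ granules of the embryo, went the other way: it was at 124 and 41.7 CPM in PL U0126 and 257 and 205 CPM in PL DMSO, against 148 and 146 CPM in N2 U0126 and 145 and 139 CPM in N2 DMSO. It fell in PL and did not pass in N2, and the PL drug libraries were far apart (-1.54, SE 0.47, adjusted p = 0.0356).

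Genes of meiosis and DNA replication rose in both genotypes as well, where 25.7% of all genes tested rose in PL and 29% in N2. In the difference 4.20% of all genes were lower and 10.8% higher. Of 38 meiotic chromosome genes, 35 rose in PL and 37 in N2, and 6 were lower and none higher in the difference. Their median difference was -0.10 with TMM, against 0.29 for all genes, and -0.47 with RLE, against -0.08. With RLE alone 23 of the 38 were lower, and leaving out 1 library gave 2 (without N2 DMSO replicate 2 or either N2 U0126 library) to 16 (without PL DMSO replicate 1). syp-1, of the synaptonemal complex, was at 44.4 and 45.9 CPM in PL U0126 and 53.3 and 43.6 CPM in PL DMSO, against 57.0 and 55.7 CPM in N2 U0126 and 31.7 and 29.5 CPM in N2 DMSO. It rose in N2, and the PL groups overlapped (-0.98, SE 0.17, adjusted p = 0.00199). The break repair genes rad-50 and mre-11 and the cohesin gene rec-8 were lower by the same test (-0.82, -0.55 and -0.53). Of 33 replication genes, 31 rose in PL and 30 in N2, and 2 were lower, cdk-2 among them (-0.90), while rnr-2, psf-1, div-1 and rpa-2 were higher with TMM only.

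Regulators of germline sex and of stem cells had a lower response in PL where they differed. For comparison, 4.20% of all genes tested were lower and 10.8% higher in the difference, and 25.7% rose in PL and 29% in N2. Of 25 sex determination genes, 21 rose in PL, 24 rose and 1 fell in N2, and 5 were lower in the difference with none higher; with RLE alone 11 were lower. Of 16 genes for stem cells and meiotic entry, 11 rose in PL and 15 in N2, and 5 were lower and none higher. Without N2 DMSO replicate 2 the lower calls were 2 in each list, and without PL DMSO replicate 2 they were 7 and 8. fbf-1, a Pumilio protein that keeps germline stem cells and promotes the change from sperm to oocytes, was at 37.6 and 40.0 CPM in PL U0126 and 28.5 and 25.6 CPM in PL DMSO, against 53.0 and 52 CPM in N2 U0126 and 19.4 and 13.9 CPM in N2 DMSO. It rose in both genotypes and more in N2 (-1.15, SE 0.21, adjusted p = 0.00325; -1.53 with RLE). tra-3, a protease that promotes female fate, was at 50.7 and 38.9 CPM in PL U0126 and 51.6 and 44.4 CPM in PL DMSO, against 88.5 and 90.1 CPM in N2 U0126 and 38.8 and 33.2 CPM in N2 DMSO. The PL groups overlapped, and N2 U0126 was highest (-1.42, SE 0.20, adjusted p = 0.000693). fbf-2, rnp-8 and tra-1, the last a zinc finger factor at the end of the pathway, were lower by 0.84, 0.92 and 0.72 on the log2 scale, and cye-1 and gls-1 by 0.47 and 0.72. The lists overlap: fbf-1 and fbf-2 were counted among the lower calls of both, and cdk-2 in the stem cell list and among the replication genes.

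The sex determination regulators gld-1, tra-2, fem-3, fog-1 and fog-3 rose in both genotypes, with no call for the difference under both scalings. fog-1, which specifies sperm fate, was at 133 and 135 CPM in PL U0126 and 49.8 and 43.8 CPM in PL DMSO, against 37.9 and 35.7 CPM in N2 U0126 and 16.8 and 18.1 CPM in N2 DMSO. It rose in both, and the difference was 0.44 (SE 0.15, adjusted p = 0.0556). fog-3, its partner in sperm fate, was at 22.4 and 24.3 CPM in PL U0126 and 13.6 and 12.7 CPM in PL DMSO, against 3.25 and 1.87 CPM in N2 U0126 and 1.09 and 1.22 CPM in N2 DMSO (-0.33, SE 0.37, adjusted p = 0.542). fem-3, which promotes sperm, was at 57.3 and 52.6 CPM in PL U0126 and 20.7 and 15.3 CPM in PL DMSO, against 97.8 and 96.9 CPM in N2 U0126 and 41.0 and 40.1 CPM in N2 DMSO. Its difference was 0.34 with TMM (SE 0.18, adjusted p = 0.203) and -0.04 with RLE. tra-2, a receptor for female fate, was at 83.0 and 75.2 CPM in PL U0126 and 51 and 45.6 CPM in PL DMSO, against 147 and 141 CPM in N2 U0126 and 84.4 and 95.7 CPM in N2 DMSO (0.03, SE 0.15, adjusted p = 0.904). gld-1, a repressor of translation in meiotic germ cells, was at 841 and 790 CPM in PL U0126 and 323 and 258 CPM in PL DMSO, against 947 and 988 CPM in N2 U0126 and 461 and 412 CPM in N2 DMSO (0.34, SE 0.16, adjusted p = 0.151). A p that misses the threshold does not show equal responses: 1 SE here is 0.15 to 0.37 on the log2 scale.

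In the pathway that the drug blocks, 24 genes were tested; 9 rose and 6 fell in PL, 12 rose and 9 fell in N2, and 3 were lower and none higher in the difference (9 lower without PL DMSO replicate 2). The shares over all genes tested were 4.20% lower and 10.8% higher in the difference. They were 25.7% rising and 16.9% falling in PL, and 29% rising and 37.1% falling in N2. ksr-2, a scaffold for ERK signalling in the germline, was at 67.8 and 56.7 CPM in PL U0126 and 73.6 and 62.1 CPM in PL DMSO, against 89.6 and 89 CPM in N2 U0126 and 40.7 and 37.5 CPM in N2 DMSO. The PL groups overlapped, and the N2 groups did not (-1.32, SE 0.17, adjusted p = 0.000473; -1.70 with RLE). gap-3, a RAS inhibitor, behaved alike (-1.02, SE 0.24, adjusted p = 0.0115). The third was lip-1 itself, which rose in N2 by 0.83 and, mutated, was near 2 to 4 CPM in PL, with values given above (-1.28, SE 0.31, adjusted p = 0.0128). mpk-1, the ERK gene, was at 137 and 130 CPM in PL U0126 and 71.8 and 61.2 CPM in PL DMSO, against 208 and 198 CPM in N2 U0126 and 133 and 127 CPM in N2 DMSO, with no call for the difference (0.36, SE 0.14, adjusted p = 0.0872). mek-2, which encodes the kinase that U0126 inhibits, was higher with TMM only (0.47), as was the FGF receptor gene egl-15 (0.78).

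Germ granule and small RNA genes held calls in both directions, most of them lower. Of 27 genes, 17 rose and 3 fell in PL, 22 rose in N2, and 7 were lower and 1 higher in the difference. Over all genes tested, 4.20% were lower and 10.8% higher, and 25.7% rose in PL and 29% in N2. Leaving out 1 library gave 3 lower (without N2 U0126 replicate 1 or N2 DMSO replicate 1) to 13 (without either PL DMSO library or PL U0126 replicate 2). glh-4, a germline helicase, was at 169 and 128 CPM in PL U0126 and 211 and 170 CPM in PL DMSO, against 158 and 158 CPM in N2 U0126 and 65.8 and 61.9 CPM in N2 DMSO. N2 DMSO was the low group (-1.66, SE 0.19, adjusted p = 0.000315; -2.04 with RLE). znfx-1, a helicase of small RNA inheritance, was at 252 and 236 CPM in PL U0126 and 312 and 293 CPM in PL DMSO, against 169 and 164 CPM in N2 U0126 and 113 and 107 CPM in N2 DMSO, a fall in PL and a rise in N2 (-0.90, SE 0.13, adjusted p = 0.00071). The Piwi gene prg-1 rose in both and more in N2 (-0.80). wago-4, an Argonaute gene, was the higher one, with 217 and 151 CPM in PL U0126 and 45.6 and 40.9 CPM in PL DMSO, against 248 and 238 CPM in N2 U0126 and 132 and 111 CPM in N2 DMSO (1.08, SE 0.22, adjusted p = 0.00505), and it was higher at 6 h too (1.42, adjusted p = 8.3e-05).

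Sperm genes were abundant in PL with and without the drug. The 31 major sperm protein genes, which build the sperm cytoskeleton, summed to 2449 and 3237 CPM in PL U0126 and 3257 and 4251 CPM in PL DMSO, against 15.9 and 1.61 CPM in N2 U0126 and 0.29 and 0.188 CPM in N2 DMSO. Of the 28 tested, 2 fell in PL. In the difference 3 of 28 major sperm protein genes were lower (8 with TMM alone), as were 5 of 57 other sperm genes, against 4.20% of all genes tested. None was higher. These calls turn on N2, where the genes are near 0: 12 of the 28 were called as rising in N2. The size of the difference rested on 1 library, N2 U0126 replicate 1. It had 56 sperm genes at a median of 0.639% of their mean level in PL, against 0.0745% in replicate 2 and 0% in both N2 DMSO libraries. The calls did not depend on that library alone: the robust fit, on all 8 libraries, called 0 of the 28. Without N2 DMSO replicate 1 or 2 the median difference of the 28 was -5.63 and -5.54. Without N2 U0126 replicate 1 none of the 28 was called and their median difference was -1.15, against -5.53 with it; without N2 U0126 replicate 2, 19 were called. Of the other sperm genes, 1 was called without N2 U0126 replicate 1, none without either N2 DMSO library, and 16 without N2 U0126 replicate 2.

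The 10 largest negative differences had levels like these genes, high in PL and near 0 in N2: nsph-3.2, F47D12.7, Y57G11A.2, R09E10.2, nsph-3.1, sss-1, msp-19, msd-4, Y69E1A.1 and ZK858.8. F47D12.7 (1.85 and 1.30 CPM in N2 U0126) and R09E10.2 (1.54 and 2.75 CPM) did not rest on N2 U0126 replicate 1. Leaving out 1 library gave -8.84 to -7.54 for F47D12.7 and -8.50 to -7.27 for R09E10.2. They were at 12.1 to 484 CPM in PL U0126, 16.2 to 644 CPM in PL DMSO, 0.0518 to 2.75 CPM in N2 U0126 and 0 in N2 DMSO. Of the 10, nsph-3.1, sss-1 and msp-19 passed with TMM only, and none of the 10 changed past the threshold in PL. gsp-3, a phosphatase of sperm, was at 110 and 144 CPM in PL U0126 and 142 and 182 CPM in PL DMSO, against 0.945 and 0.207 CPM in N2 U0126 and 0 and 0 CPM in N2 DMSO, which makes it at least 7.58-fold higher in N2 U0126 than in N2 DMSO (against 3 counts over the group). spe-15, a myosin of spermatogenesis with counts in every library, was at 115 and 135 CPM in PL U0126 and 144 and 184 CPM in PL DMSO, against 13 and 9.69 CPM in N2 U0126 and 7.70 and 9.57 CPM in N2 DMSO. Its response passed in N2 with RLE only and not in PL, and the difference passed (-0.79, SE 0.24, adjusted p = 0.0372; -1.17 with RLE).

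Calls among chaperone, ribosome and histone genes were few in number. Of all genes tested, 10.8% were higher and 4.20% lower. The share of higher calls among the 13 cytosolic chaperone genes (3, or 6 with TMM alone) was above that of all genes. The shares of the unfolded protein response and histone lists were near those of all genes, and those of the ribosomal protein genes were below them. Of 13 cytosolic chaperone genes, 7 rose and 2 fell in PL, 3 rose and 3 fell in N2, and 3 were higher with none lower: hsp-12.2 (2.07), hsp-12.1 (2.65) and the myosin chaperone unc-45 (0.79). hsp-60, the mitochondrial chaperonin, rose in both and more in PL, with 510 and 582 CPM in PL U0126 and 167 and 154 CPM in PL DMSO, against 455 and 416 CPM in N2 U0126 and 277 and 296 CPM in N2 DMSO (1.16, SE 0.14, adjusted p = 0.000409). Of 21 genes of the unfolded protein response, 2 were higher and 1 lower, xbp-1, a transcription factor that fell in PL (-0.82). Of 75 ribosomal protein genes, 61 rose in PL and 8 in N2 under both scalings, but with RLE alone 69 rose in N2. In the difference 4 were higher (10 with TMM, 59 with total counts) and none lower: rpl-11.2, rpl-25.1, rpl-37 and rpl-39. Of 28 histone genes tested among 80 listed, 4 were higher and 2 lower. The linker histone his-24 was at 13.4 and 6.97 CPM in PL U0126 and 16.6 and 7.32 CPM in PL DMSO, against 32.8 and 32.9 CPM in N2 U0126 and 187 and 166 CPM in N2 DMSO (2.13, SE 0.42, adjusted p = 0.00477).

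**Figure D5:**
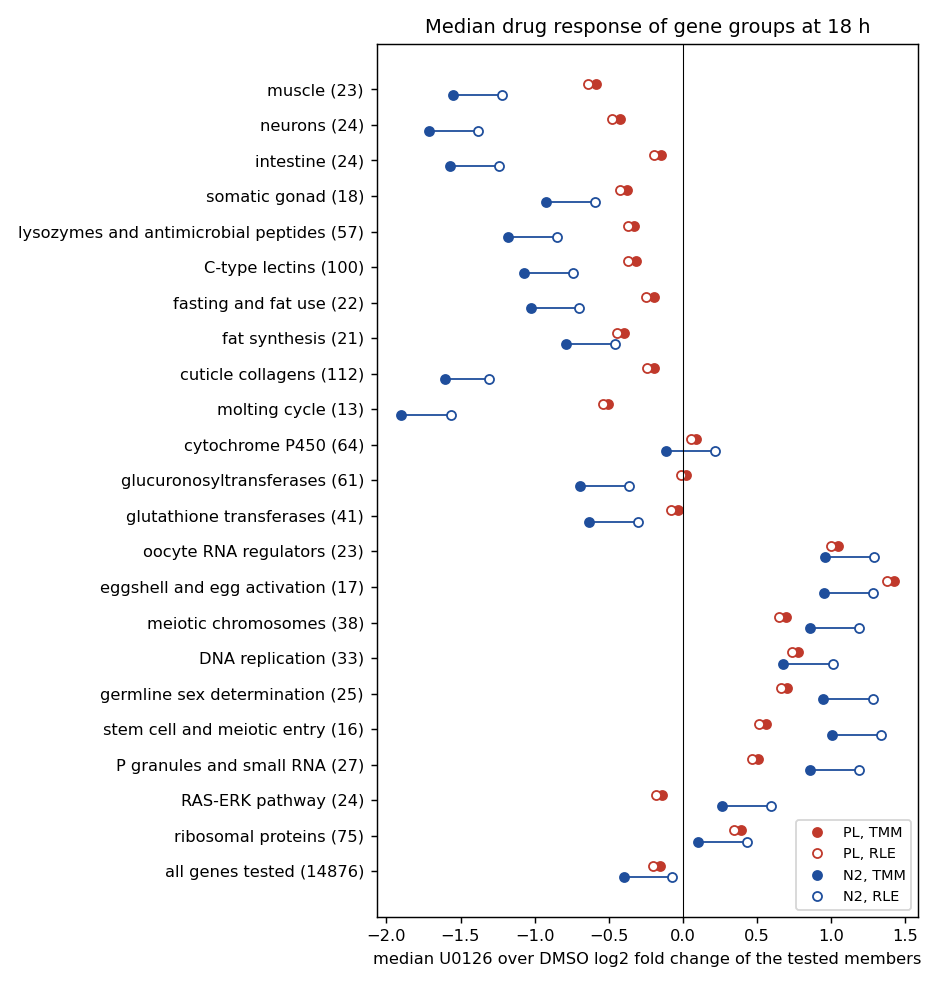
Median log2 fold change of U0126 over DMSO over the tested members (number in brackets) of 22 gene groups and of all genes, in PL (red) and N2 (blue), with TMM (filled) and RLE (open) scaling. Somatic groups lie further below 0 in N2 than in PL under both scalings, and oocyte, meiosis and replication groups lie above 0 in both genotypes.

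Genes that moved in opposite directions in the 2 genotypes were few. Under both scalings 32 rose in PL and fell in N2, and 54 fell in PL and rose in N2. With TMM alone these were 70 and 57, and with RLE alone 34 and 136. The 5 with the largest differences among those called with TMM in the first group were Y54G2A.37, phat-4, C50D2.1, dpy-14 and R74.2. Apart from dpy-14, these reached a mean of 5 CPM only through N2 DMSO, the group where they are high. Their fall in N2 is therefore not counted as a result. Y54G2A.37 averaged 1.57 CPM in PL U0126, 0.184 CPM in PL DMSO, 0.399 CPM in N2 U0126 and 6.27 CPM in N2 DMSO. For C50D2.1 these means were 1.72, 0.805, 0.409 and 13.6 CPM. phat-4, of the pharyngeal glands, was at 1.24 and 3.81 CPM in PL U0126 and 0.263 and 0.941 CPM in PL DMSO, against 0.805 and 0.622 CPM in N2 U0126 and 10.9 and 14.7 CPM in N2 DMSO (6.32, SE 0.75, adjusted p = 0.000338). dpy-14, a collagen gene, was at 0.517 and 1.17 CPM in PL U0126 and 0.351 and 0.209 CPM in PL DMSO, against 34 and 39.2 CPM in N2 U0126 and 253 and 288 CPM in N2 DMSO; its rise in PL passed with TMM only (difference 4.51, SE 0.58, adjusted p = 0.000489). In the second group were msp-45, nsph-2, sod-5, H39E23.3 and col-50. The opposite calls of dpy-14, R74.2, msp-45 and nsph-2 did not hold under both scalings. The collagen gene col-50 was at 3.31 and 1.69 CPM in PL U0126 and 5.27 and 6.17 CPM in PL DMSO, against 0.35 and 0.622 CPM in N2 U0126 and 0.145 and 0.0469 CPM in N2 DMSO (-3.57, SE 0.88, adjusted p = 0.0138).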

How the data were processed

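PolyA RNA of whole young adult hermaphrodites was sequenced, and the authors deposited raw counts of reads per gene, 1 table per library, with a few closing lines for reads assigned to no gene. Those lines were dropped; 48.5 to 50.2% of the counts of the 8 libraries fell in no feature and 0.311 to 0.449% were ambiguous. Per the submitters' processing notes, the tools were CASAVA, TopHat and DESeq, with the genome build ce10; versions and the use of strand in counting were not stated there, so overlapping and antisense genes, and near-identical copies such as the msp genes, are uncertain. Gene names came from the Ensembl WBcel235 annotation, by ID (44936 of 45461 matched); no coordinates were used.

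Genes with at least 1 CPM in at least 2 of 8 libraries were fitted in R 4.3.3 with edgeR 4.0.16 (quasi-likelihood F test, 4 groups, 4 residual degrees of freedom, Benjamini-Hochberg adjustment over all 14876 genes, threshold 0.05). SE is the log2 value over the square root of F. CPM carry TMM factors, and values at 6 h come from a separate fit of 14375 genes, so levels are not compared between hours. The procedure was tested on simulated data in which few genes changed, none of them near 0 CPM. That simulation therefore did not test the choice of scaling or calls near 0. Alternatives were RLE and total count scaling, no filter, DESeq2 1.42.0, a robust fit, replicate blocks, each library left out, and fits on all libraries with and without an untreated N2 library. The test of 18 h against 6 h was added after seeing the data. The members and gene lists were chosen with earlier results of these data known. Genes named were the 10 largest differences each way among called genes with a group mean of at least 5 CPM, up to 5 called genes per list by adjusted p, the 5 largest per pattern of opposite calls, and 10 regulators; others are marked as chosen after their values were seen.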

Additional observations from a re-analysis of the deposited data

Results flagged for a closer look

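The difference of drug responses between PL and N2 is itself a test of a difference between groups, and it called 1601 genes higher and 625 lower under both scalings. Among the genes named, those called in opposite directions in the 2 genotypes are listed here, with the log2 difference of responses, tested with edgeR. Genes that rose in PL and fell in N2 were Y54G2A.37 (7.03), phat-4 (6.32), C50D2.1 (6.09), pho-1 (2.77), cyp-13A5 (2.25), clec-56 (1.71), pgp-14 (1.65) and nlp-29 (1.42). Of these, Y54G2A.37, phat-4 and C50D2.1 reached a mean of 5 CPM only through N2 DMSO, the group where they are high. The fall of these genes in N2 is not counted as a result. Genes that fell in PL and rose in N2 were sod-5 (-4.84), H39E23.3 (-4.09), col-50 (-3.57), mtl-1 (-1.66) and znfx-1 (-0.90). With 2 libraries a group, no formal test for a library far from its group was run; N2 U0126 replicate 1 held more sperm gene counts than replicate 2, as given above, and the PL U0126 pair differed most (chi-square per degree of freedom 20.07, against 2.66 in N2 U0126).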

How the results depend on the processing

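Counts over all genes moved with the scaling, the libraries and the fit. For the difference at 18 h, 2978 genes were higher and 646 lower with TMM; RLE gave 1601 and 2541, total counts 4591 higher, DESeq2 1180 and 2294, all 52 libraries 268 and 26, and all libraries except N2 untreated replicate 2 1294 and 214. Leaving out 1 library gave 891 to 3336 higher and 240 to 2737 lower, and the larger side changed without PL DMSO replicate 1 (891 and 2620) or 2 (1105 and 2737). Under both scalings the range was 790 to 1462 higher and 230 to 1583 lower, with 65 and 26 for all 52 libraries and 343 and 214 without N2 untreated replicate 2; no gene called under both scalings was called the other way in these fits. In PL, all 52 libraries gave 1865 rising and 447 falling, the fit without N2 untreated replicate 2 gave 1306 falling, and leaving out 1 library gave 2307 to 4059 rising. In N2, all 52 libraries gave 2465 rising. At 6 h the higher count was 222 with RLE, 759 with no filter, 241 with DESeq2, 4 with all 52 libraries and 33 without N2 untreated replicate 2, with 7 and 11 lower in the last 2; leaving out 1 library gave 128 to 344 higher and 110 to 253 lower. The causes were not tested.

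Same-numbered libraries deviated together in PL (r = 0.499) and not in N2 (r = 0.008); with 2 numbers and no pairing in the labels, the fits without a block were kept. With the replicate block 3419 genes were higher and 941 lower at 18 h; with the replicate block within genotype, 4321 and 1318, and 1318 lower under both scalings.

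For the 195 named genes, 25 of the alternative values had the other sign, mostly of differences that had not passed. With RLE and DESeq2, fem-3 was at -0.037 and -0.036, tra-2 at -0.345 and -0.345, gld-1 at -0.037 and -0.038, and mpk-1 at -0.018 and -0.019. Leaving out 1 library gave -0.11 to 0.73 for puf-8, -0.053 to 0.50 for fog-1, -0.84 to 0.15 for fog-3, -0.27 to 0.40 for fem-3, -0.45 to 0.13 for tra-2, -0.22 to 0.42 for gld-1, -0.16 to 0.40 for mpk-1, -0.032 to 0.51 for mek-2, -0.02 to 0.56 for him-14 and -0.017 to 0.87 for elo-5. tra-2 passed as lower without PL DMSO replicate 1 (-0.45, edgeR adjusted p = 0.048) or 2 (-0.45, adjusted p = 0.0411). Of the rest, 2669 values kept direction and call, 594 lost the call and 13 gained it; 164 of the losses came with all 52 libraries and 103 without N2 untreated replicate 2. Genes under 1 CPM in a DMSO group limit what fall could be seen.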
